A study of Mus musculus with 45 samples.

Results

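Of the peaks of Capicua (CIC) in the mouse cerebellum, 870 of 7015 lay between genes and away from promoters, where a site found in several of the 3 lists is counted once in each. A peak was a member when none of its summits came within 1 kb of any annotated transcript start and its first-listed summit fell outside every annotated gene body. GENCODE M21 transcripts on GRCm38 and chromosomes 1 to 19 were used. As deposited, the members numbered 569 of 4495 peaks in wild-type (WT) mice, 193 of 1660 in Atxn1 154Q/2Q mice and 108 of 860 in Atxn1 154Q[V591A;S602D]/2Q mice. The lists are called WT, 154Q and 154Q AXH below. The rule used position, and neither strength nor sequence. It looked at every summit of a peak, so it can act differently on peaks with several summits.

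CIC binding was profiled by CUT&RUN, in which an antibody guides a nuclease to release the DNA under a bound protein, on nuclei of the whole cerebellum at 10 weeks of age. WT mice (n = 4), 154Q mice (n = 4) with an expanded CAG tract in 1 Atxn1 allele and a 2Q allele opposite, and 154Q AXH mice (n = 3), whose expanded allele also carries both substitutions in the CIC-binding AXH domain, were each set against CIC KO mice (En1-Cre;Cic fl/fl, n = 4). In the CIC KO control, Cic is deleted by a Cre driven from En1, and any CIC left in this control was not examined here. The libraries of a genotype were merged before peaks were called, hence each list is 1 observation, no spread between animals can be attached to any value, and the tests here compare peaks of lists rather than animals. All 3 lists share the CIC KO control. All mice, founders carrying the substitutions included, had been backcrossed to C57BL/6J.

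CIC is a repressor with an HMG box that binds octamers of the form TGAATGAA or TCAATGAA, mostly at promoters and enhancers. ERK signalling removes CIC from these sites and relieves the repression of genes such as the ETS factors of the Etv family and the Spred inhibitors of RAS. ATXN1, the protein expanded in spinocerebellar ataxia type 1 (SCA1), forms a stable complex with CIC through its AXH domain. Sites between genes include distal enhancers, the unannotated ends of genes and repeats.

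The sequences below are those of members, strong or found in all 3 lists, that held the CIC octamer or a shorter part of it. They do not stand for all members, as 22 of the 29 sites found in all 3 lists held neither in any window, among them Myt1l and Foxo3, and nor did the windows nearest Lrpap1, Oxsm, Nhlrc3, Npas4 and Arhgef26. The first set holds windows with the octamer (TCAATGAA, TCAATGGA, TGAATGAA or TGAATGGA on either strand, in capitals), from sites found in all 3 lists or among the 10 highest-ranked members of a list. Each window spans 101 bases of GRCm38 around the 154Q summit and is given 5′ to 3′ on the strand stated, with the nearest protein-coding gene as its name.
Mrc2, chr11:105353306-105353406, plus strand: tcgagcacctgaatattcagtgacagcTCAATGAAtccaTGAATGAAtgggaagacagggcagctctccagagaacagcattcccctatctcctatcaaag
Spred2, chr11:19919979-19920079, minus strand: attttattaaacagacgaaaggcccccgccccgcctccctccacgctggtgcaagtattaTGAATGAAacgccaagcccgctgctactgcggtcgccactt
Fam19a5, chr15:87386617-87386717, minus strand: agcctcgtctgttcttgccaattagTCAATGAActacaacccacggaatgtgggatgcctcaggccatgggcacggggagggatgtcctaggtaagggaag
Dlg2, chr7:92460931-92461031, plus strand: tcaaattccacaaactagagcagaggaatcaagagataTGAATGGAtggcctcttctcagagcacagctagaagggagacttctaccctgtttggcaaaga
Necab3, chr2:154543689-154543789, plus strand: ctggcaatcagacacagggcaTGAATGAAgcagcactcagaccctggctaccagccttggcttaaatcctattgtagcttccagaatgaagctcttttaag
Cartpt, chr13:99750829-99750929, minus strand: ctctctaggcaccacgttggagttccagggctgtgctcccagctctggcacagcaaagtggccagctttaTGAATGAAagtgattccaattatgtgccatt
The second set holds the 6 sites without the octamer that had the highest −log10 q in the 154Q list. The capitals mark the shorter hexamer TGAATG or TCAATG on either strand, the first 6 letters of the octamers, which was looked for after these windows had been seen. The window nearest Zfp869 is centred on the WT summit, because that around the 154Q summit lacked the hexamer.
Sipa1l2, chr8:125317730-125317830, plus strand: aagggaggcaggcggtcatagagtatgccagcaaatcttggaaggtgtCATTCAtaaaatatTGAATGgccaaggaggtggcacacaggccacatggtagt
Dysf, chr6:84319027-84319127, minus strand: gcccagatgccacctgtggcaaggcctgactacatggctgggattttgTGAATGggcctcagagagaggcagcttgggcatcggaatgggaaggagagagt
Zfp869, chr8:69717009-69717109, plus strand: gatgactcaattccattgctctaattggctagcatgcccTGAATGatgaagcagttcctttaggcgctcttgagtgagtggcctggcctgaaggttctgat
Cd83, chr13:44043723-44043823, minus strand: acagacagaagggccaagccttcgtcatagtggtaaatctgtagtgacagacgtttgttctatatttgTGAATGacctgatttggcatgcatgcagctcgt
Id1, chr2:152735143-152735243, plus strand: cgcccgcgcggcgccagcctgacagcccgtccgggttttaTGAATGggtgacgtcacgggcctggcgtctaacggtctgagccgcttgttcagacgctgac
Tph2, chr10:115013150-115013250, minus strand: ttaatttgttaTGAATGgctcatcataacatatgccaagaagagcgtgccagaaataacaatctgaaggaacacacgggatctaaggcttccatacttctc
The presence of these letters in the windows shown is no finding, since the first set was chosen for the octamer, and the second set and the list whose window is shown at a site were chosen after the sequences had been seen. The shares over all members are given with the tests. The pair of octamers nearest Mrc2 lay on the same strand, at the member that ranked first in every list once repeats had been removed.

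Repeats were more frequent among the intergenic peaks than elsewhere. Over 50% of the bases within 50 bp of the summit were soft-masked in 10.0% of intergenic WT peaks (57 of 569), against 1.60% of promoter and 5.88% of intragenic peaks (two-sided Fisher's exact test with adjusted p = 2.98e-19 and 0.00331). Over all WT peaks as deposited this share was 3.78%. In 154Q AXH it was 29.6% (32 of 108), against 1.311% and 5.63% (adjusted exact p = 1.05e-20 and 7.66e-07) and 5.58% over the list. The 154Q list, already stripped of repeats by the authors, had 4.15% (8 of 193), above the 1.28% at promoters (adjusted exact p = 0.0131) but not distinguishable from the 2.65% inside genes (adjusted exact p = 0.325), with 1.93% over the list. All 8 of these 154Q windows were fully masked, and 5 lay between chr8:20072594 and chr8:20704655, nearest Gm31371 and Gm21119. With a cutoff of 20% masked bases, the excess over intragenic peaks in WT and that over promoters in 154Q no longer passed, and the latter was also lost with equal list lengths.

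**Figure D1:**
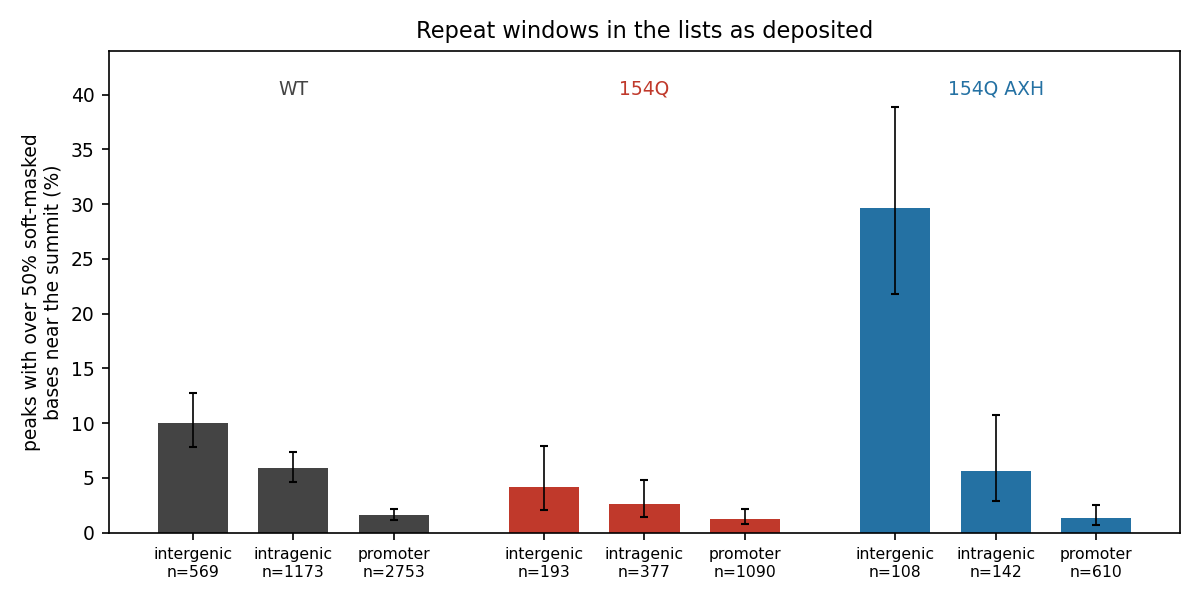
Share of peaks with over 50% soft-masked bases within 50 bp of the summit, in the lists as deposited, by list and class (bars, with 95% Wilson intervals over peaks, that is of counting error alone). Intergenic peaks stood highest in each list, at 10.0%, 4.15% and 29.6%.

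Peaks with over 50% masked bases along their length were therefore removed from WT and 154Q AXH before the lists were compared. This took out 54 and 32 members and left 515 in WT, 193 in 154Q and 76 in 154Q AXH. The filter did not make the lists alike in repeats. Summit windows over 50% masked remained at 6 members of WT (1.17%), 8 of 154Q (4.15%) and 0 of 154Q AXH. Against the RefSeq annotation of the same build, which was not used to choose them, 402 of 515, 150 of 193 and 54 of 76 members were intergenic too. The others fell within a RefSeq gene (65, 30 and 14) or within 1 kb of a RefSeq start (48, 13 and 8).

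No difference between lists in the share of intergenic peaks is called. Intergenic peaks were 11.8% of WT peaks (515 of 4364, 95% Wilson interval 10.9 to 12.8%), 11.6% of 154Q peaks (193 of 1660, 10.2 to 13.3%) and 9.31% of 154Q AXH peaks (76 of 816, 7.51 to 11.5%). The difference of 154Q from WT was -0.17 percentage points (-1.93 to 1.70, two-sided Fisher's exact test with adjusted p = 0.893), and turned to between 0.20 and 1.59 points above a −log10 q of 3, with a promoter distance of 5 kb, with equal list lengths and with peaks over 20% masked removed. The 154Q AXH share was 2.49 points below WT by size, with an interval of -4.55 to -0.11 points, and did not pass after adjustment over 3 pairs (adjusted exact p = 0.124). The 154Q share exceeded that of 154Q AXH by 2.31 points (-0.32 to 4.75, adjusted exact p = 0.129). Without the repeat filter the direction of this last difference turned (-0.93 points), and 154Q AXH was 0.10 points below WT by size. With equal list lengths it was 0.49 points below WT by size.

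After the repeat filter, the strongest member of all 3 lists lay at chr11:105353013-105353541, 12524 bp downstream of an annotated start of Mrc2, which encodes the endocytic collagen receptor Endo180. Its −log10 q stood at 922 in 154Q, 446 in WT and 117 in 154Q AXH, and among all peaks kept it held rank 1, 2 and 3 in these lists. The summits of the 3 lists lay within 1 bp of each other, beside the pair of octamers printed above. The pileup was 697 fragments over a background of 63.8 in WT (10.8-fold) and 292 over 49.3 in 154Q AXH (5.83-fold). No fragment number can be recovered for 154Q, whose list carries no fold enrichment. A −log10 q rises with the depth of a merged library, so its order across lists is given as a description.

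The next member lay at chr8:125317582-125317994, 174930 bp downstream of a start of Sipa1l2, a GTPase-activating protein for the small GTPase Rap. Its −log10 q stood at 208 in WT, 370 in 154Q and 23.7 in 154Q AXH, and the fold enrichment 6.06 in WT and 2.55 in 154Q AXH. At the site 6378 bp upstream of Zfp869, a zinc-finger gene, the values were 49.4, 87.8 and 4.23. The site nearest Cd83, a surface protein of antigen-presenting cells, lay 258588 bp away and had 25.2, 78.1 and 6.05. At these 4 sites the order was 154Q, then WT, then 154Q AXH, which held at 8 of the 29 sites found in all 3 lists. At Myt1l, a zinc-finger factor of neurons, WT (29.8) was above 154Q (25.8) and 154Q AXH (5.33), and at Foxo3, a forkhead factor whose nearest start was 1318 bp away, the values were 23.2, 8.20 and 11.2.

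Sites of the 154Q list that were absent from that of 154Q AXH included strong ones. Those named here stand among the highest-ranked of 154Q, whereas over the 108 sites found in both 154Q and WT the 154Q value was higher at 43, with medians of 4.97 in 154Q and 7.99 in WT. The site nearest Dysf, the membrane-repair protein dysferlin, had a −log10 q of 95.9 in 154Q and 31.4 in WT. That nearest Tph2, the rate-limiting enzyme of serotonin synthesis in neurons, had 47.3 in 154Q and 4.35 in WT. The site 3055 bp from a start of Necab3, a calcium-binding protein, had 46.8 and 23.1. In the 154Q list alone were the sites nearest Cartpt, a neuropeptide precursor (61.8), and Id1, an inhibitor of basic helix-loop-helix factors (58.9). The Id1 summit stood 1058 bp upstream of the start and held the cAMP response element TGACGTCA. This element was at 1 of 193 154Q members (0.518%), beside 15 of 1660 peaks of the list (0.904%). It was at 6 of 515 WT members (1.17%) and 1 of 76 154Q AXH members (1.32%), beside 0.802% and 0.735% of all peaks of these lists. Lrpap1, a chaperone of the LDL receptor family, had a site in 154Q (42.7) and 154Q AXH (7.85) that WT lacked.

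Further members stood among the 10 highest-ranked of a list. In WT these were sites nearest Oxsm, an enzyme of mitochondrial fatty acid synthesis (26.2 in WT and 2.13 in 154Q), and Nhlrc3 (25.3 and 6.43), neither of them in the 154Q AXH list. In 154Q AXH these were sites nearest Arhgap26 (9.98), Npas4, an activity-dependent transcription factor (8.88), Neto1, an auxiliary protein of glutamate receptors (8.28), Ptgds, the brain prostaglandin D synthase (6.81), and Arhgef26 (6.06). That nearest Arhgef26 was found in no other list.

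Across the lists the members joined into 626 sites, of which 29 were found in all 3 lists, 104 in a pair of lists and 493 in 1 list. The share of members found in another list is given below beside that of all peaks. The 29 shared sites were not evenly strong. Beside the sites above they included Spred2, an inhibitor of RAS-ERK signalling, Fam19a5, a secreted brain protein, Dlg2, a postsynaptic scaffold, Fat2, a cadherin of granule cells, and Stmn2 and Chgb, a tubulin-binding and a granin protein of neurons. At 24 of the 29 the WT −log10 q exceeded that of 154Q AXH, at 22 the 154Q value exceeded that of 154Q AXH, and at 12 the 154Q value exceeded WT. The fold enrichment was above that of 154Q AXH in WT at 22 of 29, with medians of 3.81 and 3.36. At 10 of 29 the summits of the 3 lists lay within 50 bp, and the median distance between the outermost summits was 79 bp.

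**Figure D2:**
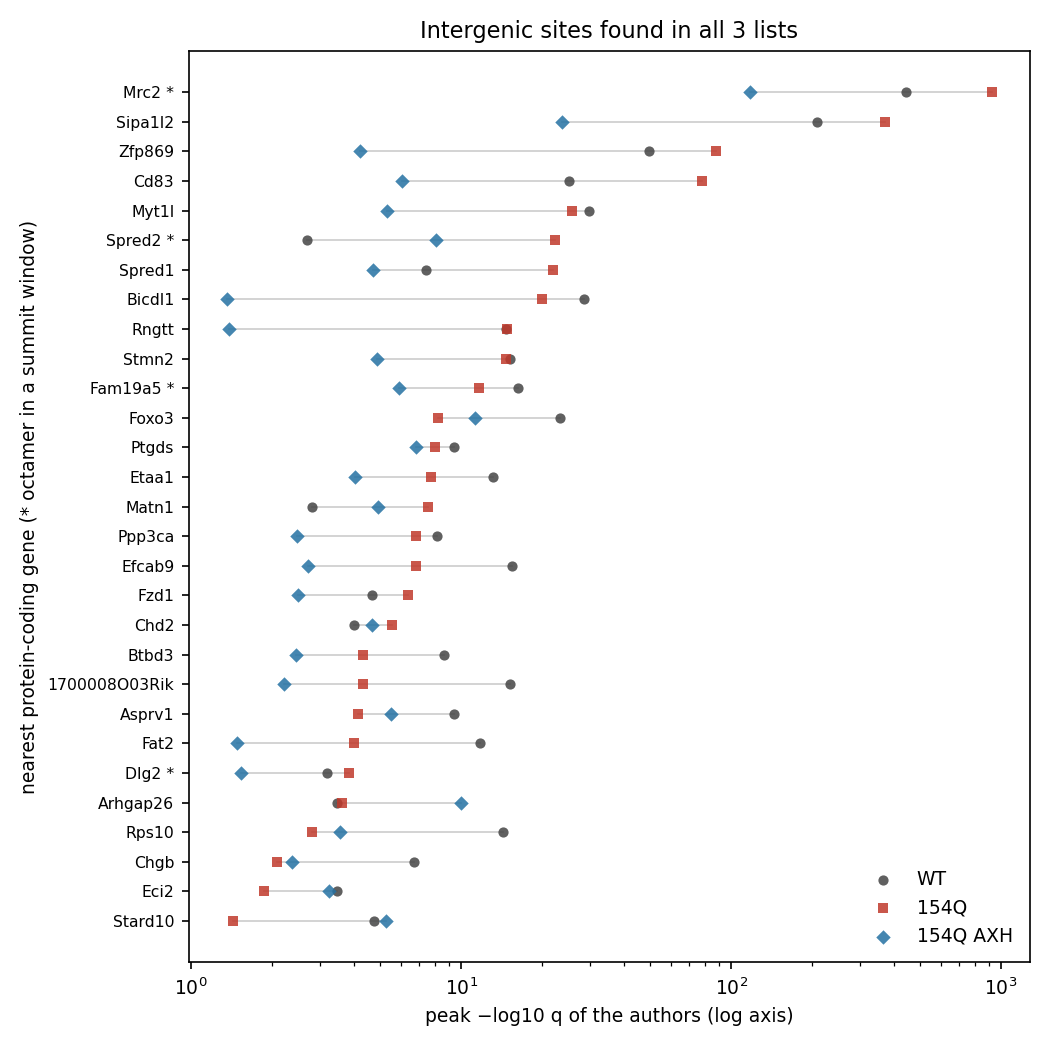
−log10 q (log axis) of the strongest peak of each list at the 29 sites with an intergenic member that were found in all 3 lists, named by the nearest protein-coding gene; an asterisk marks the 4 sites with the octamer in at least 1 summit window. At the site nearest Spred1 all 3 peaks plotted were promoter peaks, beside a weaker intergenic WT peak (1.78), and at those nearest Bicdl1 and Stmn2 some were of another class. Mrc2 and Sipa1l2 stand apart at the top, and the 154Q AXH values lie below WT at 24 of 29 sites.

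At the site upstream of Spred2 the WT value was the lowest. It spanned chr11:19919779-19920611, about 4 kb upstream of an annotated start, with a −log10 q of 2.68 in WT, 22.2 in 154Q and 8.06 in 154Q AXH. The summits were 434 bp apart, and the 154Q window alone held the octamer. At the site nearest Fam19a5 (16.2, 11.7 and 5.88) too, the octamer was in the 154Q window alone, although the summits lay within 32 bp. At Mrc2 and Dlg2 it was in the windows of all 3 lists. At Dlg2, a weak site (3.18, 3.84 and 1.53), the outermost summits lay 216 bp apart, so the windows did not all show the same octamer. At Arhgap26 the 154Q AXH value of 9.98 exceeded those of WT (3.47) and 154Q (3.60).

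In the full lists, most WT members were found in WT alone. Of 515, 105 (20.4%) overlapped a 154Q peak and 49 (9.51%) a 154Q AXH peak by at least 1 bp, where the shares over all WT peaks were 22.9% and 13.1%. Of the 193 members of 154Q, 108 (56.0%) overlapped WT and 27 (14.0%) overlapped 154Q AXH, beside 61.1% and 24.3% over the whole list. Of the 76 members of 154Q AXH, 51 (67.1%) overlapped WT and 28 (36.8%) overlapped 154Q, beside 71.1% and 50% over the list. All 6 shares were lower for intergenic peaks than for their list, and higher than for intragenic peaks except that of 154Q AXH in 154Q. With equal list lengths the shares became 40% and 21.3% for WT in 154Q and in 154Q AXH, 36.6% and 22.6% for 154Q in WT and in 154Q AXH, and 25% and 28.9% for 154Q AXH in WT and in 154Q, so the order of these shares depended on list length. With a reciprocal overlap of 50%, the share of WT in 154Q AXH fell to 5.44% and that of 154Q AXH in WT to 38.2%. These shares were not tested.

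WT members found in other lists too had higher median −log10 q than those found in WT alone. In WT the median −log10 q was 10.6 for the 26 members in all 3 lists, 7.20 for 79 shared with 154Q alone, 3.93 for 23 shared with 154Q AXH alone and 2.94 for 387 in WT alone. The octamer stood at 2 of the 26 WT members in all 3 lists (7.69%, 95% Wilson interval 2.14 to 24.1%), at 11 of the 79 WT members shared with 154Q alone (13.9%, 7.96 to 23.2%), at 0 of the 23 shared with 154Q AXH alone (3 counts, taken as the limit that a count of 0 allows, would be 13.0%) and at 8 of the 387 in WT alone (2.07%, 1.05 to 4.03%). In 154Q it stood at 4 of the 25 members in all 3 lists (16%, 6.40 to 34.7%), at 10 of the 83 shared with WT alone (12.0%, 6.68 to 20.8%) and at 6 of the 83 in 154Q alone (7.23%, 3.36 to 14.9%). These differences were not tested.

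In WT and 154Q the octamer was more frequent at the summits of intergenic peaks than 500 bp away. In WT it lay within 50 bp of the summit of 21 of 515 members (4.08%), against 5 of the flanking windows (0.971%; two-sided exact McNemar test with adjusted p = 0.00374). The share over all WT peaks was 2.41%. In 154Q it was 20 of 193 (10.4%) against 4 (2.07%; adjusted exact p = 0.00374), with 6.69% over the list. In 154Q AXH it was 4 of 76 (5.26%) against 1 (1.32%) and did not pass (adjusted exact p = 0.375), with 3.68% over the list. Most members of each list thus held no octamer near the summit. The WT difference of 3.11 points became 1.17 points with TGAATGAA alone and 6.25 points with equal list lengths, and passed under neither (adjusted exact p = 0.164 and 0.0938). The 154Q difference of 8.29 points became 17.2 points with equal list lengths and 14.7 points above a −log10 q of 3. These flanks lay below the summit. With flanks 500 bp above it, the differences were 2.91 points in WT, 10.4 in 154Q and 1.32 in 154Q AXH, the last in place of 3.95.

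**Figure D3:**
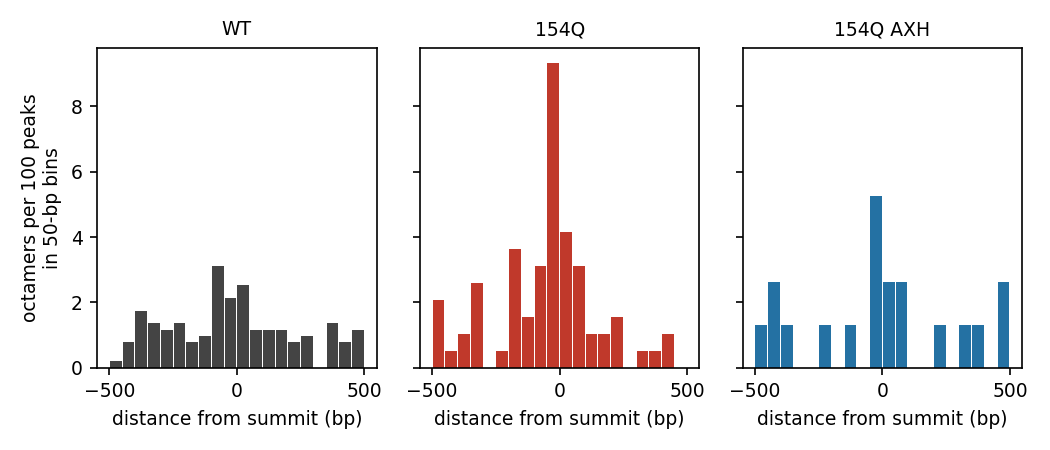
Octamers on either strand per 100 intergenic peaks, in 50-bp bins from 500 bp below to 500 bp above the summit, for each list. The bin just below the summit reached 9.33 per 100 peaks in 154Q and 5.26 in 154Q AXH (4 octamers), and 2.14 in WT, whose highest bin (3.11) was next to it.

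The lists are set side by side here without a call, since each genotype gave 1 merged list and the same sites enter several lists. The octamer share of members was 6.29 percentage points higher in the 154Q list than in the WT list (2.17 to 11.6, counting error over peaks alone), and 108 of the 193 members of 154Q overlapped WT peaks. With the peaks that overlapped the other list left out, which was added after the data had been seen, 6 of 85 members of 154Q (7.06%) and 8 of 410 of WT (1.95%) held the octamer, and the difference of 5.11 points (0.90 to 12.7) did not pass a two-sided Fisher's exact test over peaks (adjusted p = 0.0608). The other classes showed a gap too, as the octamer was present in 10.9% of intragenic peaks of 154Q against 3.14% in WT, and in 4.59% against 1.79% of promoter peaks. The intergenic difference was 12.0 points when the same number of highest-ranked peaks was taken from each list. It was 5.79 points when members within 5 kb of a start were left out, where the Fisher's exact test over peaks did not pass (adjusted p = 0.0518). The 154Q AXH share exceeded that of WT by 1.19 points (-2.63 to 8.82), which turned to -0.99 points with equal list lengths, and the 154Q share exceeded that of 154Q AXH by 5.10 points (-3.20 to 11.1), or by 13.0 points with equal list lengths. The 76 members of 154Q AXH left these intervals wide. Among the members that were also intergenic in RefSeq, the octamer was present in 3.73% of 402 in WT, 12.0% of 150 in 154Q and 7.41% of 54 in 154Q AXH. The 76 members of 154Q AXH left these intervals wide.

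Within WT and within 154Q, intergenic peaks held the octamer more often than promoter peaks. The difference was 2.286 points in WT (4.08% against 1.79%, adjusted exact p = 0.00858) and 5.78 points in 154Q (10.4% against 4.59%, adjusted exact p = 0.00858). In 154Q AXH it was 2.293 points (-1.32 to 9.87, adjusted exact p = 0.570). Against intragenic peaks the differences were 0.94 points in WT (-0.90 to 3.19), -0.51 points in 154Q (-5.53 to 5.29) and -0.71 points in 154Q AXH (-6.96 to 7.34), none of which passed (adjusted exact p = 0.570, 1 and 1), and the first 2 of which turned sign under some settings. The WT excess over promoters no longer passed above a −log10 q of 3, with equal list lengths or with TGAATGAA alone, nor did that of 154Q with a promoter distance of 5 kb. The 154Q excess was 11.1 points with equal list lengths, 8.67 above a −log10 q of 3 and 5.09 with a promoter distance of 5 kb.

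**Figure D4:**
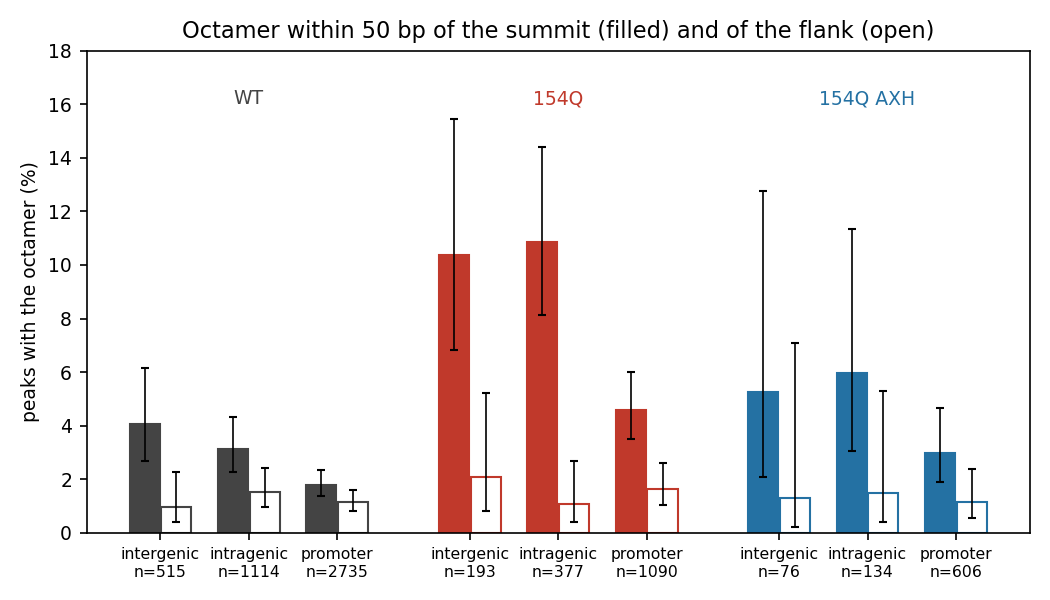
Share of peaks with the octamer within 50 bp of the summit (filled bars) and around the point 500 bp below it (open bars), by list and class, with 95% Wilson intervals over peaks. Intergenic and intragenic peaks of 154Q stood highest, at 10.4% and 10.9%.

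The kinds of octamer were counted without a test. In 154Q, 17 of the 25 octamers found at member summits were TGAATGAA and 6 were TGAATGGA, whereas in WT TGAATGAA and TGAATGGA each made up 8 of 22. In 154Q AXH 1 of 5 was TGAATGAA. With TGAATGAA alone, 7.25% of 154Q members and 1.55% of WT members held a match, beside 4.096% and 1.17% of all peaks of these lists and 7.43% and 1.80% of intragenic peaks. The octamers stood at a median of 14.5 bp from the summit in 154Q, 19 bp in WT and 18.5 bp in 154Q AXH, and 4 of the 154Q members held more than 1.

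The hexamer TGAATG or TCAATG, chosen after the sequences had been seen, was present at 62 of 515 WT members (12.0%, against 7.18% of flanks), 49 of 193 in 154Q (25.4% against 9.84%) and 10 of 76 in 154Q AXH (13.2% against 5.26%). It was present in 11.7%, 24.4% and 14.2% of intragenic peaks, 6.29%, 10.5% and 7.26% of promoter peaks and 8.34%, 15.4% and 8.95% of all peaks.

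A smaller share of intergenic than of promoter peaks of WT, and a larger share than of intragenic peaks, reached a high −log10 q, and both differences depended on the processing. A −log10 q above 10 was reached by 75 of 515 members (14.6%), where the share over the list was 18.1%, against 22.1% at promoters (difference -7.56 points, -10.8 to -3.92, two-sided Fisher's exact test with adjusted p = 0.000442) and 10.1% inside genes (4.51 points, 1.14 to 8.20, adjusted p = 0.0284). The sign of the latter difference turned with a threshold of 20 and with equal list lengths, and it no longer passed with a threshold of 5, above a −log10 q of 3, with a promoter distance of 5 kb or with peaks over 20% masked removed (adjusted exact p = 0.0857, 0.0684, 0.0662 and 0.108). That from promoters no longer passed with equal list lengths or a promoter distance of 5 kb. In 154Q the threshold was passed by 26 of 193 members (13.5%), beside 17.2% over the list, and in 154Q AXH by 3 of 76 (3.95%), beside 8.95%. The differences from promoters (-4.60 points, -9.36 to 1.34, and -6.45 points, -10.2 to 0.91) did not pass (adjusted exact p = 0.223 and 0.193), nor did those from intragenic peaks. With a threshold of 20, both 154Q differences turned sign (0.40 points from promoters and 1.13 from intragenic peaks), and the 154Q AXH difference from intragenic peaks of -1.28 points turned to 7.55 without the repeat filter, 5.03 with a threshold of 5 and 0.92 with a promoter distance of 5 kb. The 154Q AXH difference from promoters turned to 3.56 points without the repeat filter, and passed at -8.02 points with protein-coding genes only (adjusted exact p = 0.0135).

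In median depth the members kept stood between intragenic and promoter peaks. At the summit a median of 27 fragments was piled up in WT and 23.5 in 154Q AXH, where the smallest pileups called were 19 and 18, and the median fold enrichment over CIC KO was 3.03 and 3.18. Promoter peaks of WT had a median of 34 fragments and those of 154Q AXH 27, intragenic peaks 25 and 23, and all peaks 30 and 26. With equal list lengths the WT members had a median of 47.5 fragments. The control background at members had a median of 7.60 and 6.21 fragments. More than 1 summit was listed for 24.3% of WT, 22.8% of 154Q and 9.21% of 154Q AXH members, beside 22.5%, 17.7% and 12.5% of all peaks.

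The median GC content of the members was nearer to that of intragenic than of promoter peaks. The median GC content within 50 bp of the summit reached 51.5% in WT, 52.5% in 154Q and 54.5% in 154Q AXH, beside 60.4%, 61.4% and 62.4% at promoters, 51.5%, 51.5% and 53.5% inside genes and 45.5%, 46.5% and 49.5% in the members' own flanks. No CpG was present in 25.8%, 29.0% and 23.7% of member windows, against 3.91%, 3.30% and 2.48% of promoter and 30.3%, 32.6% and 26.9% of intragenic windows. The GC box CCGCCC, a site of SP1-like factors, was in 5.83%, 6.74% and 15.8% of member windows and in 35.6%, 37.4% and 40.1% of promoter windows, with 3.86%, 3.45% and 8.21% of intragenic ones. The ETS site CCGGAAG was in 0.777%, 0.518% and 1.32% of member windows and in 5.74%, 6.51% and 5.94% of promoter and 0.898%, 1.06% and 0.746% of intragenic windows. The AP-1 site TGAGTCA was in 3.69%, 3.11% and 5.26% of member windows, beside 1.75%, 3.63% and 1.32% of their flanks and 1.35%, 0.917% and 1.16% of promoter and 3.05%, 3.98% and 1.49% of intragenic windows. The E-box CAGCTG was in 4.66%, 5.70% and 3.95%, and in 5.05%, 3.63% and 10.5% of flanks and 5.92%, 6.90% and 8.96% of intragenic windows. Both strands were searched, none of these motifs is contained in the octamer, and a match is not evidence that a factor is bound.

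Members of the 3 lists had similar median distances to coding genes. The median distance from the summit to the nearest protein-coding start was 31231 bp in WT, 28370 bp in 154Q and 29446 bp in 154Q AXH, with quartiles of 9215 and 103172 bp in WT. Between 10 and 50 kb lay 34.4%, 35.2% and 27.6% of members, and beyond 500 kb 3.69%, 3.11% and 1.32%. The summit was upstream of that start in 63.9% of WT, 55.4% of 154Q and 65.8% of 154Q AXH members, and the rule favours this side by leaving out gene bodies. Within 2 kb of any start were 46, 15 and 10 members.

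**Figure D5:**
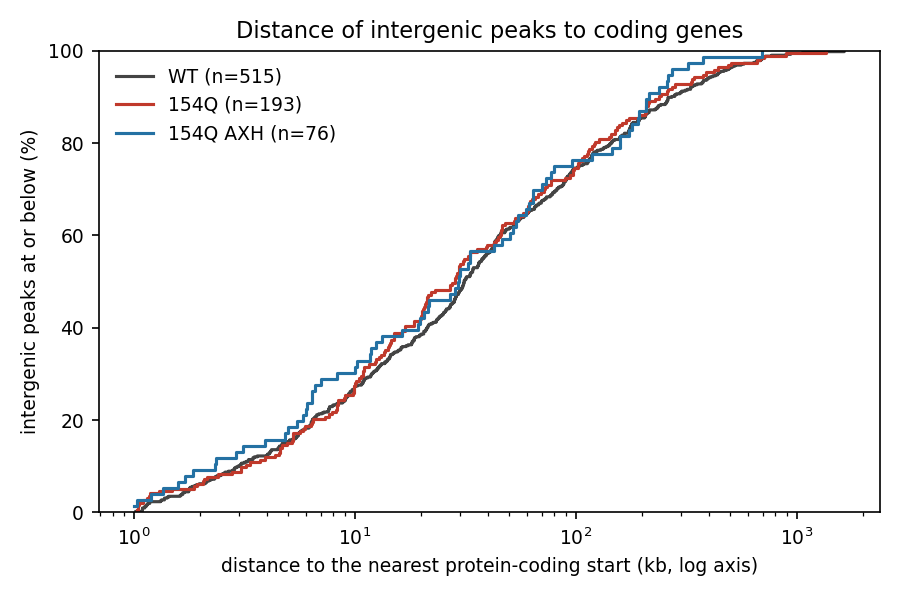
Cumulative share of intergenic peaks by distance from the summit to the nearest protein-coding start (kb, log axis) in each list. The 3 curves run close together, with medians of 28370 to 31231 bp.

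The peaks on either side of the 1 kb threshold were as follows. In WT the 5 members nearest the threshold were 1020 to 1090 bp from a start, with a median −log10 q of 4.08, and the 5 nearest peaks excluded by it were 942 to 994 bp away with 3.39. In 154Q these values were 1031 to 1078 bp with 4.45, and 951 to 999 bp with 3.84. In 154Q AXH they were 1002 to 1352 bp with 2.99, and 848 to 976 bp with 2.03. None of these 5 peaks of any set held the octamer. The 154Q AXH member nearest the threshold, 1002 bp from a start of Bicdl1, a dynein adaptor, coincided with promoter peaks of WT and 154Q.

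Members also occurred near each other. In WT 83 of 515 members stood in 39 clusters whose neighbouring summits were at most 10 kb apart, in 154Q 22 of 193 in 10 clusters and in 154Q AXH 2 of 76 in 1 cluster. The largest cluster, 4 WT members nearest Smg1, a kinase of nonsense-mediated decay, spanned chr7:118252442-118259857 and reached a −log10 q of 20.3. In WT, 3 members nearest Kdm6b, a histone H3K27 demethylase, reached 20.3. Near Sncb, the gene of beta-synuclein, 3 members each were found in WT (up to 16.3) and 154Q (up to 1.44). In 154Q, 3 members stood 28370 to 29492 bp upstream of Dusp5, a nuclear phosphatase of ERK, with −log10 q values of 7.11, 6.73 and 2.70, where WT had 1 peak of 18.1 with 3 summits.

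By nearest start, the members belonged to 425 of 20780 protein-coding genes (2.05%) in WT, to 174 (0.837%) in 154Q and to 75 (0.361%) in 154Q AXH. Of 12 known CIC targets, 3 were nearest to a WT member (Etv1, Spred1, with a weak peak of 1.78, and Spred2), 4 to a 154Q member (Etv1, Spred2, Dusp4 and Ccnd1) and 1 to a 154Q AXH member (Spred2). The members of Etv1, an ETS factor, were far from its start, at 211199 to 504762 bp, with −log10 q values of 5.96, 3.70 and 2.66 in WT and 5.56 and 1.41 in 154Q. The member of Ccnd1, the G1 cyclin D1, was in the 154Q list alone, 1487 bp upstream with the octamer and a value of 20.015. That of Dusp4, an ERK phosphatase, was weak (1.95) and 127160 bp away.

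Of 29 ERK feedback and immediate early genes, 5 were nearest to a WT member (Dusp5, Junb, Egr3, Egr4 and Npas4), 2 to a 154Q member (Dusp5 and Egr4) and 1 to a 154Q AXH member (Npas4). In WT these had −log10 q values of 18.1, 3.06, 5.09, 2.93 and 5.37. No member was nearest to any of 15 other ETS factors. The Dusp, Egr and Npas4 genes encode ERK phosphatases and stimulus-induced transcription factors.

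Among markers of cerebellar cells, 7 of 19 granule neuron genes were nearest to a WT member (Zic2, Zic4, Cbln1, Fat2, Barhl2, Meis1 and Nfix), and Zic2 and Fat2 to members of 154Q and 154Q AXH. The granule neuron members had −log10 q values of 1.37 to 14.3 in WT, the highest nearest Barhl2, a homeobox factor of granule precursors, at 181706 bp. Those of Cbln1 and Meis1 in WT were weak (1.44 to 2.62) and 173647 to 299185 bp away. Those of Zic2, Zic4 and Nfix were 6187 to 9528 bp away, with values of 1.37 to 4.29. The site 20498 bp upstream of Fat2 had 11.7 in WT, 4.01 in 154Q and 1.48 in 154Q AXH. Of 24 Purkinje cell genes, Calb1 (calbindin) alone was nearest to a member, in WT at 285144 bp. Of 20 astrocyte and Bergmann glia genes none was nearest to a WT member and Slc1a3, a glutamate transporter, and Id1 were nearest to members of 154Q (4.85 and 58.9). Mbp, the myelin basic protein, was the single one of 17 oligodendrocyte genes, with a site 20489 bp upstream that had 15.8 in WT, with 9.28 in 154Q. No microglial or endothelial gene of the 8 listed for each was nearest to a member. Of all protein-coding genes, 2.05% were nearest to a member in WT, 0.837% in 154Q and 0.361% in 154Q AXH. Counts of 0 or 1 in lists this short are therefore not read as absences, and none of these counts was tested. Peaks do not measure expression, so the cell types present were not checked by these lists, and the share of each cell type in a site's signal was not tested.

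Genes nearest to members also carried promoter peaks in part. A promoter peak of the same list was present at 91 of the 425 genes in WT (21.4%), 27 of 174 in 154Q (15.5%) and 5 of 75 in 154Q AXH (6.67%), beside 12.9%, 5.39% and 3.08% of all protein-coding genes. Etv1, Spred1, Spred2, Dusp4, Dusp5 and Zic2 had a promoter peak in all 3 lists. Mrc2, Sipa1l2, Zfp869, Cd83, Dysf, Tph2, Necab3, Lrpap1, Cartpt, Id1 and Ccnd1 had a promoter peak in none.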

How the data were processed

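CUT&RUN for CIC, H3K27ac and IgG was performed on cerebellar nuclei of 15 mice (45 samples), of which the 30 H3K27ac and IgG samples were not analysed here. Reads were trimmed with Trimmomatic 0.36 and aligned with Bowtie2 2.3.4.1 to GRCm38, and CIC fragments under 120 bp from the merged libraries of each genotype were used by the authors to call peaks with MACS3 against merged CIC KO libraries at q 0.05. The deposited WT and 154Q AXH lists give, per summit, a fold enrichment (ratio), an integer score, which was not used, a −log10 p-value and a −log10 q-value, and the deposited 154Q list gives 1-bp summits with a −log10 q. The authors' merging leaves no replicate error and can let a deeply sequenced animal dominate a list.

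Lines were collapsed to peaks by peak number, and a peak was represented by its summit with the highest −log10 q. WT and 154Q AXH peaks with over 50% soft-masked bases were removed, since the 154Q list had lost repeats before deposition. The masked members that led these lists as deposited are not reported here. Overlap needed 1 bp. The 154Q peaks, known by their summits alone, ran from the first to the last summit, which lowers their overlap. The whole pileup giving both the fold enrichment and the −log10 p was found within 0.002, for 100% of members. Shares carry 95% Wilson intervals and differences Newcombe intervals, both for counting error over peaks only. Adjustment of p-values was by the Benjamini-Hochberg method over 3 pairs, or over 6 comparisons of classes, with a threshold of 0.05. Named genes are those nearest the 10 highest-ranked members of each list, the sites in all 3 lists and members of gene lists; the genes of clusters were named after their values were seen. The RefSeq comparison, the clusters, the peaks beside the 1 kb threshold, the promoter peaks of nearest genes, the hexamer, the test without overlapping peaks and the choice of sequences shown were added after the data had been seen. Sequences are of the GRCm38 RefSeq assembly. The members and lists were chosen with earlier results of these data known. The methods were tested on simulated data. Python 3.11.15, SciPy 1.17.1, pandas 2.3.3 and pysam 0.24.0 were used. Coordinates are 1-based.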

Additional observations from a re-analysis of the deposited data

Results flagged for a closer look

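A difference between lists was singled out because a test over peaks passed, although that test cannot call a difference between genotypes. The octamer was present at 6.29 percentage points more of the intergenic peaks in 154Q than in WT (10.4% of 193 against 4.08% of 515, two-sided Fisher's exact test with adjusted p = 0.00954). Each genotype gave 1 merged list, so peaks are not replicates of it, and 108 of the 193 members of 154Q overlapped WT peaks. With overlapping peaks left out, the difference was 5.11 points and did not pass (adjusted exact p = 0.0608). It was 12.0 points with equal list lengths, 6.67 without the repeat filter, 6.20 with peaks over 20% masked removed and 6.71 with masked summit windows removed from all 3 lists (adjusted exact p = 0.0326, 0.00381, 0.0109 and 0.00504). Leaving out the repeat filter or removing peaks over 20% masked altered WT and not 154Q, whose list gives no peak intervals. With a promoter distance of 5 kb the difference was 5.79 points and no longer passed (adjusted exact p = 0.0518). Over all peaks the octamer was present in 6.69% in 154Q and 2.41% in WT, in intragenic peaks in 10.9% and 3.14% and in promoter peaks in 4.59% and 1.79%. The 154Q list was shorter and had been filtered for repeats before deposition, and beyond these settings the part of either in the difference was not tested.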

How the results depend on the processing

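Of 423 values under alternative settings, 362 kept their direction and side of the threshold or, for values with no test, stayed within their interval. Another 23 turned sign, 17 no longer passed, 4 newly passed and 17 moved. Some of the 362 could not change, so this count is not a measure of stability. Equal list lengths leave the members of 154Q AXH, the shortest list, as they were. Settings on the masked share along a peak leave the members of 154Q as they were. Between lists, passing refers to a test over peaks and calls no difference between genotypes. With equal list lengths the differences in octamer share became 6.25 points for the WT summit against its flank, 2.70 for WT against promoters (neither passing), 13.0 for 154Q against 154Q AXH (newly passing), -0.99 for 154Q AXH against WT and -0.65 for WT against intragenic peaks. Those in −log10 q above 10 in WT became -3.83 against promoters and -2.80 against intragenic peaks, those in repeats in 154Q 0.0843 against promoters and -0.22 against intragenic peaks, none passing, and the intergenic share of 154Q was 1.59 points above WT. The overlaps became 40% and 21.3% (WT in 154Q and in 154Q AXH), 36.6% and 22.6% (154Q in WT and in 154Q AXH) and 25% (154Q AXH in WT), the WT median distance 21296 bp and its median pileup 47.5 fragments. With TGAATGAA alone, the WT octamer excess was 1.17 points over flanks and 0.712 over promoters, no longer passing, and it was -0.24 against intragenic peaks, with 154Q AXH at -0.24 against WT. With a promoter distance of 5 kb, the octamer differences were 5.79 (154Q against WT) and 5.09 (154Q against promoters), the strength differences in WT -4.89 and 5.29 (promoters and intragenic peaks), all 4 no longer passing, that of 154Q AXH from intragenic peaks 0.92, the intergenic share of 154Q 0.32 above WT, and the median distances 42798 bp (WT) and 39407 bp (154Q). With protein-coding genes only, the octamer difference of 154Q from 154Q AXH was 7.12 and the strength difference of 154Q AXH from promoters -8.02, both newly passing, the octamer difference of 154Q from intragenic peaks 0.69, and the median GC content in WT 52.0%. With −log10 q above 3, the octamer difference of WT from promoters was 1.94 and the strength difference from intragenic peaks 6.79, both no longer passing, with -0.79 for the octamer in WT against intragenic peaks and 0.96 for the intergenic share of 154Q against WT. The overlap of WT in 154Q AXH was then 7.22%, that of 154Q AXH in 154Q 50%, and the median pileups 33 (WT) and 29 (154Q AXH). Strength thresholds of 5 and 20 gave 5.49 and -0.618 for WT against intragenic peaks, neither passing. The threshold of 5 gave 5.03 for 154Q AXH against intragenic peaks, and that of 20 gave 0.40 and 1.13 for 154Q against promoters and intragenic peaks. Removing peaks over 20% masked gave 3.99 for WT against intragenic peaks and 0.20 for the intergenic share of 154Q against WT, and counting windows over 20% masked gave repeat differences of 2.17 (WT against intragenic peaks) and 2.295 (154Q against promoters), no longer passing, and -0.69 (154Q against intragenic peaks). Without the repeat filter the overlap of 154Q AXH in 154Q was 25.9%, the strength differences of 154Q AXH 3.56 from promoters and 7.55 from intragenic peaks, and the intergenic share of 154Q against 154Q AXH -0.93. A reciprocal overlap of 50% gave 5.44% (WT in 154Q AXH) and 38.2% (the converse). Both added after seeing the data, the hexamer gave 12.2 for 154Q against 154Q AXH (newly passing) and 0.99 for 154Q against intragenic peaks, and leaving out overlapping peaks gave octamer differences of 5.11 for 154Q against WT (no longer passing) and -0.0773 for 154Q AXH against WT. Fewer peaks enter under equal list lengths and stricter cutoffs; beyond that the cause was not tested.

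No paired analysis was possible because the libraries of a genotype were merged before peaks were called, and for the same reason no animal could be left out. The smallest pileups called, 19 and 18 fragments, limit what weaker sites could be detected, and the 76 members of 154Q AXH limit every comparison with that list.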
